A study of Oryza sativa with 4 samples.

Results

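A stretch of rice chromosome 7 holds a pair of neighbouring peroxiredoxin genes, LOC_Os07g44430 and LOC_Os07g44440. The first, which RefSeq lists under the synonym R1C-Prx, is a 1-Cys peroxiredoxin. The stretch was defined by locus ID, from LOC_Os07g44410 to LOC_Os07g44460 in the MSU rice annotation, and every transcript of the tables within it was taken. This gave 4 loci of the 3141 with a locus ID, each with 1 assembled transcript, over 20406 bases (IRGSP-1.0, chromosome 7, 26542982 to 26563387). The stretch had been picked with the high value of its 1-Cys peroxiredoxin at day 2 in view, so the values below describe it and test nothing.

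Peroxiredoxins are thiol enzymes that reduce hydrogen peroxide and organic peroxides through a reactive cysteine. The 1-Cys kind has only that cysteine and no second, resolving cysteine, and it needs an outside reductant to be restored. In cereals it is best known from the embryo and aleurone of the maturing and dormant seed, where its messenger accumulates with abscisic acid (ABA) and with desiccation, and the rice protein also carries the older name RAB24.

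RNA sequencing compared coleoptiles at day 2 of senescence with control coleoptiles, both from wild-type seedlings of rice (Oryza sativa) variety PB1. Day 2 coleoptiles came from seedlings that were kept under water for 7 days and then spent 2 days in air, and their labelled age was 9 days post germination. Control coleoptiles were harvested at 7 days post germination, when the same period under water had just ended. The labels enter submergence as the treatment of all 4 libraries, and only the protocol text and the study's methods state the move to air. According to those methods, the move to air was also a move from water to cotton soaked with growth medium. Air, medium, age and senescence therefore changed together and cannot be told apart. There were 2 libraries per group, and the tables held 1 pooled value per group in FPKM, the number of fragments divided by the length of the transcript and by the mapped total. No spread between libraries, no test and no p-value could be given, and the number of fragments behind a value is unknown. The tables hold transcripts that the authors selected for change, so a difference of 4-fold or more was a condition of being listed. Markers of the coleoptile could not be checked in such a list.

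The 1-Cys peroxiredoxin was among the most abundant listed transcripts at day 2 and low in control. LOC_Os07g44430 (chromosome 7, 26548835 to 26550044) had 533.8 FPKM at day 2 and 1.07 FPKM in control, a log2 ratio of 8.97. Of the 3141 loci, 43 had a higher day 2 FPKM, and 98.6% had a lower one. In control, 37.5% of the loci had a lower FPKM, so its control level was below the middle of the list. Whole organs were sequenced, and more cells with the transcript cannot be told apart from more transcript per cell.

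The second peroxiredoxin gene, LOC_Os07g44440, lies 1630 bases further on (26551675 to 26552939) and is annotated by the study as a 1-Cys type too. It had 20.1 FPKM at day 2 and 3.01 FPKM in control, a log2 ratio of 2.74. The order of the pair differed between the groups. At day 2 LOC_Os07g44430 had 26.6 times the FPKM of LOC_Os07g44440, whereas in control it had 0.354 times that FPKM. Both genes are annotated as 1-Cys peroxiredoxins, and whether the authors' counting divided shared reads between them was not determined.

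LOC_Os07g44410 (26542982 to 26545180) comes 3654 bases before the 1-Cys peroxiredoxin and has no annotation in the sources used here. It had 64.9 FPKM at day 2 and 8.03 FPKM in control, a log2 ratio of 3.02, and was the most abundant of the 4 loci in control. LOC_Os07g44460 (26557096 to 26563387) is annotated as a peroxidase precursor. Secreted plant peroxidases, which are made as precursors, are haem enzymes and unrelated to peroxiredoxins. This locus had 1.86 FPKM at day 2 and was listed at 0 in control, so no fold can be given. Of the 245 loci listed at 0 in control, 160 had a higher day 2 FPKM, and its level was below their median of 2.48 FPKM.

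**Figure D1:**
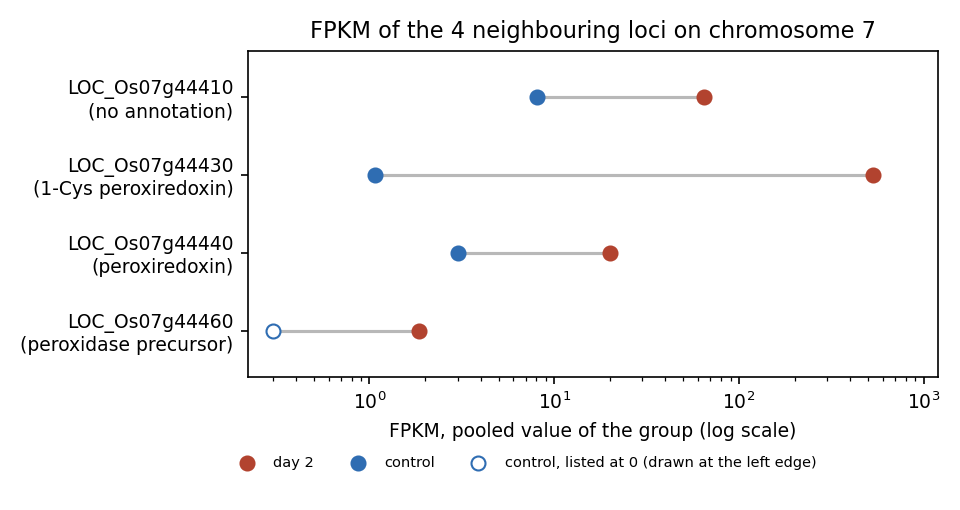
FPKM (x axis, log scale) of the 4 loci of the stretch, 1 pooled value per group, with day 2 in red and control in blue; the open point is a value listed at 0, drawn at the left edge. LOC_Os07g44430 has the longest line, with 533.8 FPKM at day 2 and 1.07 FPKM in control.

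A locus was counted as higher with a log2 ratio of 2 or more, provided that day 2 or control reached 1 FPKM. By this rule, 3 of the 4 loci were higher at day 2 and the remaining locus was listed at 0 in control. Among all loci, 57.7% were higher, 34% were lower, and 7.8% were listed at 0 in control. A stretch without lower loci is therefore no result about its members. The shares over all loci leave out transcripts found only in control, as none was listed at 0 at day 2. The size of the difference set LOC_Os07g44430 apart within the stretch. Its log2 ratio exceeded that of LOC_Os07g44410 by 5.95 and that of LOC_Os07g44440 by 6.23, while these flanking genes had ratios of 3.02 and 2.74, close to each other. The median log2 ratio of all loci that were higher was 3.13.

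The sum over the 4 loci was 620.6 FPKM at day 2 and 12.1 FPKM in control, a 51.3-fold difference. LOC_Os07g44430 held 86.0% of the sum at day 2 and 8.82% in control. LOC_Os07g44410 held 10.46% at day 2 and 66.3% in control, and LOC_Os07g44440 held 3.24% at day 2 and 24.9% in control. The share of LOC_Os07g44460 was 0.299% at day 2 and 0 in control. Of the summed difference between the groups, 87.5% came from LOC_Os07g44430. Without it the other loci came to 86.8 FPKM at day 2 and 11.04 FPKM in control, a 7.87-fold difference. FPKM is already divided by transcript length, so these shares compare levels per length.

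**Figure D2:**
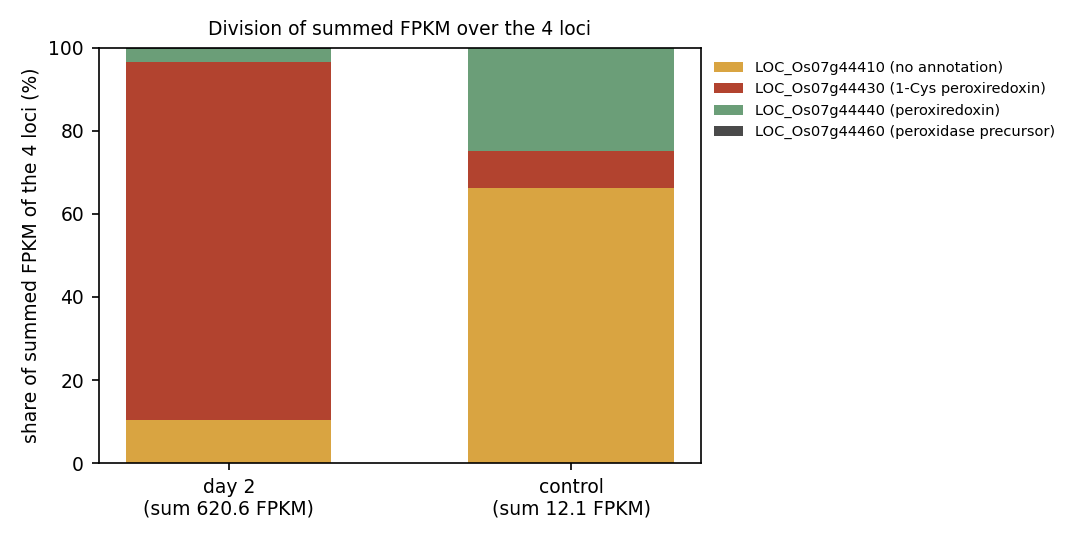
Share of the summed FPKM of the 4 loci (y axis, percent) held by each locus, in day 2 (left, sum 620.6 FPKM) and in control (right, sum 12.1 FPKM). LOC_Os07g44430 (red) fills 86.0% of the day 2 bar and 8.82% of the control bar; LOC_Os07g44460, at 0.299% in day 2, is too thin to see.

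The steps within the stretch were set beside those of other neighbours. Among listed loci, 391 pairs lay next to each other within 10 kb with values above 0 in both groups and 1 FPKM or more in either, and in 268 of them both members differed in the same direction. The median gap in log2 ratio within these same-direction pairs was 0.90. The pair of LOC_Os07g44430 and LOC_Os07g44440 had the third largest gap of the 268, at 6.23, and the pair of LOC_Os07g44410 and LOC_Os07g44430 had the next largest, at 5.95. Among all 391 pairs, those of opposite direction included, these gaps ranked 62 and 69. Both gaps rest on the ratio of LOC_Os07g44430, for whose high day 2 value the stretch was picked, so their ranks test nothing. In the assembly by the authors, LOC_Os07g44410, LOC_Os07g44430 and LOC_Os07g44440 have gene models with consecutive numbers (XLOC_047419 to XLOC_047421), and LOC_Os07g44460 has a model from another run of numbers (XLOC_050379). RefSeq (assembly ASM3414082v1), in which 3 of the loci were matched by gene ID, places 0 genes between the peroxiredoxin genes and 1 gene between LOC_Os07g44440 and LOC_Os07g44460. The tables analysed here hold no transcript with a locus ID between those last 2 loci.

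The nearest listed locus before the stretch was a locus with no annotation, 31.5 kb away, with 0.898 FPKM at day 2 and 0.210 FPKM in control. Then came LOC_Os07g44330, annotated as a kinase and similar to the kinase that switches off pyruvate dehydrogenase, with 73.0 FPKM at day 2 and 18.04 FPKM in control. The next was LOC_Os07g44280, a dirigent protein, a family that guides the coupling of phenolic radicals. It had 41.8 FPKM at day 2 and 0.249 FPKM in control, a log2 ratio of 7.39. After the stretch the nearest was another locus without annotation, at 164.2 kb, with 19.1 FPKM at day 2 and 1.12 FPKM in control. A cytochrome P450 locus, LOC_Os07g45000, was the first lower locus on that side, with 25.7 FPKM at day 2 and 146.2 FPKM in control. Within 150 kb on either side of the start of LOC_Os07g44430 there were 8 listed loci, the 4 of the stretch included, and none was lower at day 2, beside 34% of all loci.

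**Figure D3:**
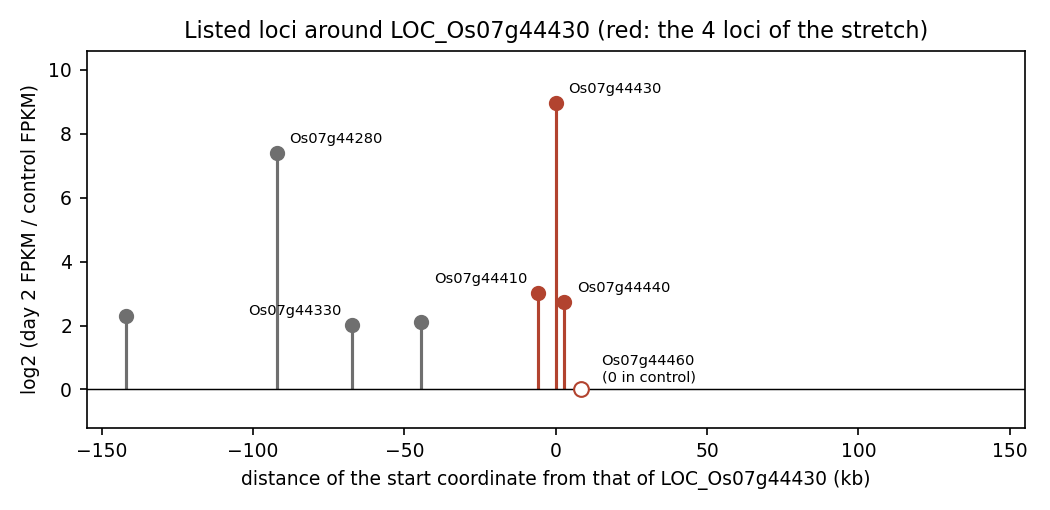
Log2 ratio of day 2 to control FPKM (y axis) of the 8 listed loci within 150 kb of the start of LOC_Os07g44430. The x axis is the distance between start coordinates in kb. Red marks the 4 loci of the stretch, and the open point has no ratio because control is listed at 0. Of the loci outside the stretch, only LOC_Os07g44280 and LOC_Os07g44330 are drawn with a name. The peak of 8.97 at LOC_Os07g44430 stands between ratios of 3.02 and 2.74.

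Set among all loci, the 1-Cys peroxiredoxin ranked 20 by log2 ratio out of 2880 with values above 0 in both groups and 1 FPKM or more in either. A level at least 32-fold higher at day 2 was listed for 8.31% of all loci. On chromosome 7 it had both the largest log2 ratio of 207 ranked loci and the highest day 2 FPKM of 233. Few loci combined so abundant a day 2 transcript with so low a control value. Of 49 loci with 500 FPKM or more at day 2, 13 were under 2 FPKM in control, and 9 other loci had both a day 2 FPKM at least as high and a control FPKM at least as low as LOC_Os07g44430. The low control value alone was common in the list, where the median control FPKM of all loci was 2.27. Its share of the summed FPKM of all listed transcripts was 0.369% at day 2. LOC_Os07g44410 ranked 972 and LOC_Os07g44440 ranked 1143 by log2 ratio.

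**Figure D4:**
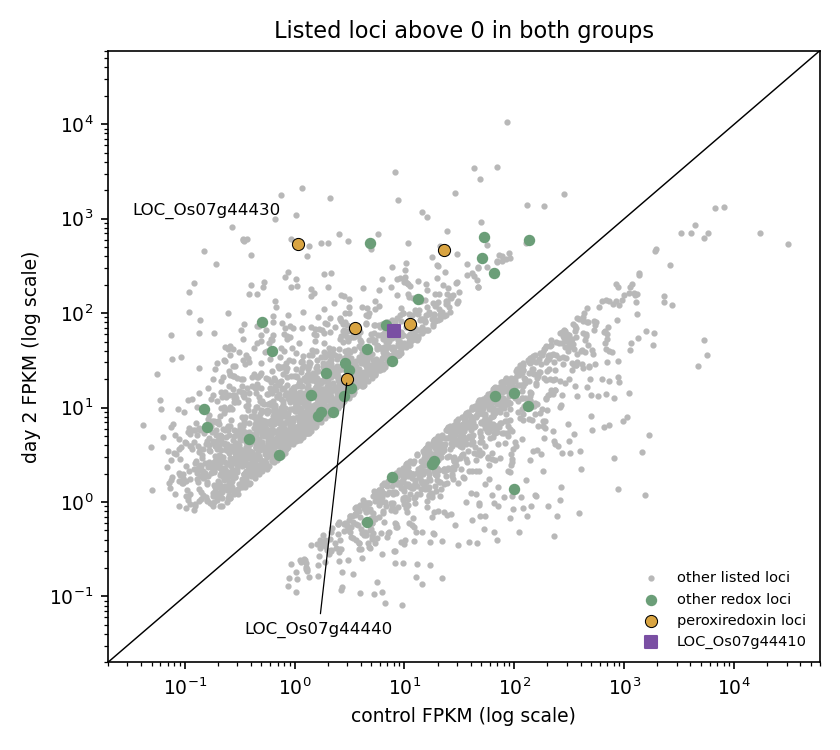
Day 2 FPKM (y axis) against control FPKM (x axis), both on log scales, for listed loci above 0 in both groups, with peroxiredoxins in orange and other redox loci in green; the line marks equal values, and the band along it is empty because only changed transcripts were listed. LOC_Os07g44430 lies at 533.8 FPKM at day 2 and 1.07 FPKM in control, above and left of the other peroxiredoxin loci.

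The remaining peroxiredoxins were of the type II kind, small enzymes of cytosol, plastid and mitochondrion. The study's redox list holds 5 peroxiredoxin loci, and 5 of 5 were higher at day 2, beside 57.7% of all loci. The list was chosen by the study on these libraries, so the count is no independent evidence of a direction. LOC_Os01g48420 (chromosome 1, 27745829 to 27747887), similar to Arabidopsis TPX2, had 460.6 FPKM at day 2 and 22.7 FPKM in control. LOC_Os01g16152 (chromosome 1, 9118185 to 9121411), similar to the mitochondrial PRXIIF of Arabidopsis, had 75.9 FPKM at day 2 and 11.3 FPKM in control, summed over 2 transcripts. LOC_Os06g42000 (chromosome 6, 25214051 to 25215245), annotated as type II, had 68.9 FPKM at day 2 and 3.55 FPKM in control, also over 2 transcripts.

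The order of the peroxiredoxins was thus not the same in the groups. LOC_Os07g44430 was the highest of the 5 at day 2 and the lowest of the 5 in control. It held 46.0% of their summed FPKM at day 2 and 2.56% in control, against 39.7% at day 2 and 54.5% in control for LOC_Os01g48420. LOC_Os07g44440 had the lowest day 2 FPKM of the 5, and its log2 ratio of 2.74 was level with the 2.74 of LOC_Os01g16152. LOC_Os06g42000 and LOC_Os01g48420 lay between, at 4.28 and 4.34. Without values per library, neighbours in these orders could not be set against a replicate spread.

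The wider antioxidant system was compared through the study's 37 redox loci. Of these, 29 were higher and 8 lower at day 2, which is 78.4% higher beside 57.7% of all loci. Their median log2 ratio was 2.74, beside 2.37 over all ranked loci. Among them LOC_Os07g44430 had the largest log2 ratio and the fourth highest day 2 FPKM. It held 12.7% of their summed FPKM at day 2 and 0.125% in control.

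Catalases and superoxide dismutase, which remove hydrogen peroxide and superoxide, accounted for 3 of these loci, and 3 of 3 were higher, beside 57.7% of all loci. LOC_Os02g02400, catalase isozyme A, had 546.1 FPKM at day 2 and 4.82 FPKM in control, a log2 ratio of 6.82. Its day 2 level was close to that of the 1-Cys peroxiredoxin. The catalase LOC_Os03g03910 had 39.97 FPKM at day 2 and 0.617 FPKM in control. The copper/zinc superoxide dismutase LOC_Os07g46990 had 383.5 FPKM at day 2 and 50.5 FPKM in control, a log2 ratio of 2.93.

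Of the 21 loci of ascorbate and glutathione metabolism, the main soluble antioxidants of plant cells, 17 were higher and 4 lower, beside 57.7% higher and 34% lower among all loci. Among loci at 1 FPKM or more in both groups, LOC_Os05g02530 and LOC_Os12g29760 had the highest log2 ratios, at 3.61 and 3.59, and LOC_Os02g43360 the lowest, at -3.69. LOC_Os05g02530, similar to dehydroascorbate reductase, which regenerates ascorbate, had 640.9 FPKM at day 2 and 52.4 FPKM in control. LOC_Os12g29760, similar to L-galactose dehydrogenase of ascorbate synthesis, had 23.3 FPKM at day 2 and 1.93 FPKM in control. The cytochrome b5-like locus LOC_Os02g43360 had 10.4 FPKM at day 2 and 133.8 FPKM in control, and the cytochrome b561-related locus LOC_Os05g49040 had 2.53 FPKM at day 2 and 17.8 FPKM in control.

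Thioredoxins and glutaredoxins are small thiol proteins that pass electrons to peroxiredoxins and other targets. Of 5 loci filed under thioredoxin, 4 were higher and 1 lower, beside 57.7% higher and 34% lower among all loci. LOC_Os01g73234, similar to thioredoxin y of plastids, had 29.8 FPKM at day 2 and 2.86 FPKM in control, and LOC_Os01g07376, similar to an h-type thioredoxin, had 16.1 FPKM at day 2 and 3.23 FPKM in control. The thioredoxin-like TTL3 locus LOC_Os05g50990 had 13.3 FPKM at day 2 and 66.6 FPKM in control. All 3 listed glutaredoxins were lower, against 34% lower among all loci. Of these, LOC_Os12g35330 had 1.39 FPKM at day 2 and 98.7 FPKM in control, and LOC_Os01g09830 (OsGrx_A2) had 14.2 FPKM at day 2 and 98.7 FPKM in control.

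**Figure D5:**
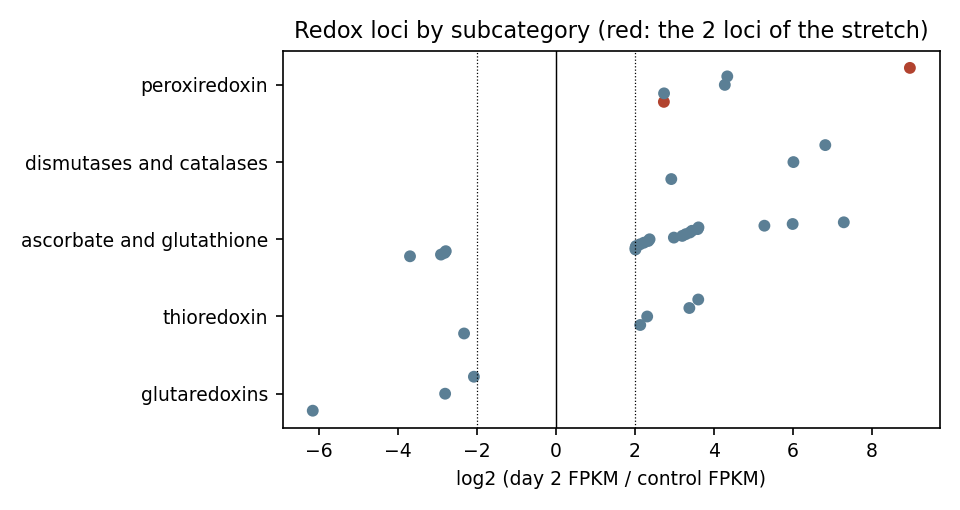
Log2 ratio of day 2 to control FPKM (x axis) of the 37 redox loci by subcategory (rows), 1 point per locus; dotted lines mark 4-fold, and red marks LOC_Os07g44430 at 8.97 and LOC_Os07g44440 at 2.74. All 5 peroxiredoxins lie to the right, and all 3 glutaredoxins to the left.

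Because 1-Cys peroxiredoxin is known as an ABA-responsive gene, the study's 16 loci of the ABA category were set beside it. Of these, 12 were higher and 4 lower at day 2, which is 75% higher beside 57.7% of all loci. With only loci at 1 FPKM or more in both groups, 7 of 11 were higher, beside 52.3% of the 1789 such loci in all. The summed FPKM of the 16 loci was lower at day 2, with 678.3 FPKM beside 906.1 FPKM in control. A lower locus without annotation held 58.4% of that control sum. The study chose this list on the same libraries as well, and a link of LOC_Os07g44430 to ABA was not tested. The highest log2 ratio of the 16 loci, beside 8.97 for LOC_Os07g44430, was 4.11 for the HVA22 locus LOC_Os11g30500, a membrane protein family first known from ABA-treated barley aleurone. It had 66.6 FPKM at day 2 and 3.86 FPKM in control. The GRAM domain locus LOC_Os12g29400 had 272.2 FPKM at day 2 and 23.4 FPKM in control. The other loci of this list annotated as GRAM domain proteins were lower. They were LOC_Os02g42430 with 2.93 FPKM at day 2 and 58.0 FPKM in control, and LOC_Os04g44500 with 24.97 FPKM at day 2 and 235.1 FPKM in control.

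The 5 loci whose pair of levels lay nearest to that of LOC_Os07g44430 had 407.1 to 614.6 FPKM at day 2 and 0.923 to 2.02 FPKM in control. Their distances on the log2 scale were 0.29 to 0.92, taken over the pooled values of both groups. They lie on 5 chromosomes, and 0 of 5 has a functional annotation in the sources used here. A likeness over so few values says little.

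A scaling difference between the groups would move all ratios alike. The summed FPKM of all listed transcripts was 144639 at day 2 and 269393 in control. With day 2 multiplied by the ratio of these sums, 1.86, which makes the sums equal, the log2 ratio of LOC_Os07g44430 was 9.86 and that of LOC_Os07g44440 was 3.64. With day 2 divided by 1.86, a shift of the same size the other way, they were 8.07 and 1.84, the second below 4-fold. The shares within the stretch do not depend on such a factor.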

How the data were processed

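RNA from 2 control and 2 day 2 coleoptile libraries had been sequenced. According to the study's methods, reads were filtered with NGS QC Toolkit, mapped to IRGSP-1.0 with TopHat and assembled with Cufflinks and Cuffmerge. FPKM from Cuffdiff were deposited by the authors as 1 pooled value per transcript and group, for 3439 transcripts selected for a log2 ratio of at least 2 in size, with transcripts specific to day 2 added. The study's methods also name a floor of 1 FPKM and a shortlist of transcripts by p-value over the biological replicates. The scaling option is not given in the sources used here.

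The tables were joined by transcript ID, blanks around locus IDs were removed, and FPKM was summed per locus (3241 transcripts, 3141 loci). Log2 ratios of day 2 to control used no pseudocount (Python 3.11.15, pandas 2.3.3). Calculations were tested on simulated data. With 1 value per group, the planned limma fit was not run. Named loci were the 4 of the stretch, the 5 peroxiredoxins, the 3 dismutases and catalases, up to 2 largest rises and falls of each other list, the 3 neighbours per side and the 5 nearest patterns, with loci without annotation counted but not named. The members and lists were chosen with earlier results of these data known. No sequences were printed.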

Additional observations from a re-analysis of the deposited data

How the results depend on the processing

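No paired analysis was possible because every column of the tables is a pooled group value that bears no replicate number. Leaving out single replicates and a limma fit were not run either, and depth was not weighed. Values were taken as unchanged within 0.1 for a log2 ratio, 1 percentage point for a share and 1.5 times for a count or rank. Of 25 alternative values for 9 results, 8 stayed within these limits, 17 moved and 0 reversed. A log2 ratio counted as reversed only if its sign changed, which these settings could not bring about for ratios of this size. With a pseudocount of 1 the log2 ratio was 8.01 for LOC_Os07g44430, 2.87 for LOC_Os07g44410 and 2.39 for LOC_Os07g44440, and with a pseudocount of 0.1 it was 8.84 for LOC_Os07g44430. With day 2 multiplied by the factor of 1.86 these ratios were 9.86, 3.91 and 3.64, and with day 2 divided by it they were 8.07, 2.12 and 1.84. A wider stretch, which added 2 loci, put the share of LOC_Os07g44430 at 76.9% at day 2 and 3.52% in control. FPKM multiplied by genomic span put it at 78.2% at day 2 and 5.68% in control. Without LOC_Os07g44440 it was 88.9% at day 2. Its rank by log2 ratio was 4 of the 1789 loci with FPKM 1 or more in both groups, a filter that takes out loci low in control. LOC_Os07g44430 itself passed that cut only narrowly, with 1.07 FPKM in control, so this rank depends on where the cut falls. The same filter left 7 of 11 ABA loci higher at day 2, beside 52.3% of those 1789 loci. The settings for the ABA list, for the control share and without LOC_Os07g44440 were chosen after seeing the data.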

Other observations

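The loci with a larger log2 ratio than LOC_Os07g44430 were looked at after their values had been seen. The largest log2 ratio of the 19, 11.57, belonged to a locus without annotation. Of the 19, 12 carry a functional annotation in the sources used here, and 4 of these are dehydrins, hydrophilic proteins of drying seeds and stressed tissue. All 4 dehydrins lie near each other on chromosome 11, between 15223375 and 15337158, so they are not separate occurrences. The dehydrin LOC_Os11g26570 had 1650.6 FPKM at day 2 and 2.09 FPKM in control, and LOC_Os11g26780 had 1102.7 FPKM at day 2 and 1.04 FPKM in control. A late embryogenesis abundant protein, LOC_Os03g20680, had 612.9 FPKM at day 2 and 0.366 FPKM in control. The caleosin-related locus LOC_Os04g43170, from a family of oil body proteins, had 413.4 FPKM at day 2 and 0.399 FPKM in control. The other 6 annotated loci are a cupin domain protein, a Tim17 translocase subunit, a CBS domain membrane protein, a cytokinin-O-glucosyltransferase, a retrotransposon protein and a dehydrogenase E1 component domain protein. Of the 12, the cupin domain locus LOC_Os08g08980 had the largest log2 ratio, with 2125.9 FPKM at day 2 and 1.18 FPKM in control. The Tim17 locus LOC_Os03g19290 had 328.8 FPKM at day 2 and 0.194 FPKM in control. No group of genes was tested for over-representation among the 19. The share of dehydrins over all loci was not counted, so their number here cannot be judged against it.

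Beyond the loci that the rule named, the second largest log2 ratio among the 37 redox loci was that of LOC_Os12g16200, which makes glutathione as a glutathione synthetase. It had 80.1 FPKM at day 2 and 0.511 FPKM in control, a log2 ratio of 7.29, and was singled out after its values were seen.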
